A study of Mus musculus with 7 samples.

Results

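Ccr7 and Ccr6 encode chemokine receptors that place B cells within lymphoid tissue. Both genes were found by their symbols in the deposited table, which gave 2 members among 752 listed genes. The table compares RNA from 3 Batf KO mice with RNA from 4 wild type mice, all on the C57BL/6J strain background, taken from B cells of the spleen in culture. B cells of both genotypes were activated for 6 h with lipopolysaccharide (LPS, 20 µg/mL) and interleukin-4 (IL-4, 20 ng/mL), so the groups share the stimulus and differ in Batf. The kind of Batf allele, the cells in which it acts and the age and sex of the mice are not stated here by the labels.

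Chemokine receptors are seven-transmembrane proteins that signal through Gi-class G proteins and steer cells along gradients of small secreted proteins, the chemokines. CCR7 binds CCL19 and CCL21, which stromal cells make in the T cell zones of spleen and lymph nodes, and activated B cells use it to move to the border where they meet helper T cells. CCR6 binds CCL20 and is carried by mature B cells, memory B cells, some T cells and dendritic cells. BATF, an AP-1 family factor, binds DNA as a dimer with JUN proteins, often beside IRF4 or IRF8, and is known for its part in antibody class switching.

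Effective library size ran from 23675459 to 30844920 reads for Batf KO mice and from 24891094 to 44728937 reads for wild type mice. Batf itself was measured at 63.4, 70.3 and 65.8 CPM (counts scaled to library size) in the Batf KO libraries, against 315, 307, 333 and 322 CPM in the wild type libraries, as the labels call for. The wild type libraries were alike in pairs, replicates 1 and 2 on one side and 3 and 4 on the other. The Y chromosome gene Usp9y had 72 reads in Batf KO replicate 1, against 0 in each of the other libraries. Whether the sex of the mice differed was not tested. Every gene in the table had passed the authors' false discovery rate of 0.05 in this same comparison, which 3.81% of the 19734 genes they tested did (1.95% were higher in Batf KO, and 1.86% were lower). The genotype difference of each member is therefore given as a description, and its p-values are not independent evidence.

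Ccr7 rose in Batf KO B cells, and it took some of the largest shares of reads in the table in both genotypes. The gene (ENSMUSG00000037944) lies on chromosome 11, 99144196 to 99155077, minus strand (GRCm38), codes for protein and overlaps no other annotated gene. It had 1535, 1496 and 1400 CPM in Batf KO replicates 1 to 3, against 886, 896, 936 and 942 CPM in wild type replicates 1 to 4. The groups did not overlap, and the lowest Batf KO library lay 48.6% above the highest wild type library. Genes higher in Batf KO whose groups did not overlap made up 47.5% of the 667 genes fitted, so the separation is common in this selected table. Ccr7 averaged 1477 ± 69.5 CPM (SD, n = 3) in Batf KO and 915 ± 28.1 CPM (SD, n = 4) in wild type, which is 1.61-fold (log2 fold change 0.69, SE 0.06). In edgeR's quasi-likelihood test the adjusted p was 2.67e-05 over the fitted genes, of which 100% passed and 50.8% passed as higher in Batf KO, and 0.000789 over all 19734 genes that the authors tested, where 20.1% of the fitted genes passed as higher in Batf KO. The exact two-sided permutation p was 0.0286, the smallest that 3 against 4 libraries allow.

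The change of Ccr7 was moderate in size and carried by many reads. Reads per library numbered 33145 to 47355 for Batf KO mice and 23450 to 41847 for wild type mice. By reads taken, with no account of gene length, its rank among the 752 genes was 1, 2 and 1 in Batf KO replicates 1 to 3, against 4 in wild type replicates 1 to 3 and 5 in replicate 4. Among the 384 genes that the authors' deposited table lists as higher in Batf KO, it ranked 61 by p-value and 178 by size of change. The SD over the mean was 4.71% in Batf KO and 3.07% in wild type, below the medians of 8.89% and 10.5% over the fitted genes of these groups. The 3 mice and the 4 mice each gave much the same level.

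Ccr6 was lower in Batf KO, and few reads came from it in either genotype. The gene (ENSMUSG00000040899) lies on chromosome 17, 8236043 to 8257141, plus strand (GRCm38), codes for protein and overlaps no other annotated gene. It had 61, 60 and 33 reads in Batf KO replicates 1 to 3, against 207, 120, 115 and 102 reads in wild type replicates 1 to 4. Scaled to library size these were 1.98, 2.23 and 1.39 CPM in Batf KO, against 5.19, 3.99, 2.57 and 4.10 CPM in wild type. The groups did not overlap, but wild type replicate 3 came near the Batf KO libraries, 15.5% above the highest of them. Genes lower in Batf KO with groups that do not overlap made up 48.6% of the fitted genes.

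These neighbouring libraries could not be separated within counting error. The exact 95% Poisson interval was 1.70 to 2.87 CPM for Batf KO replicate 2 and 2.12 to 3.09 CPM for wild type replicate 3, while wild type replicate 1 had 4.51 to 5.95 CPM. Ccr6 averaged 1.87 ± 0.43 CPM (SD, n = 3) in Batf KO and 3.96 ± 1.08 CPM (SD, n = 4) in wild type, a level 47.1% of wild type (log2 fold change -1.08, SE 0.27). The adjusted p was 0.00493 over the fitted genes in edgeR's quasi-likelihood test, where 49.2% passed as lower in Batf KO, but 0.146 over all 19734 genes, where 22.8% of the fitted genes passed as lower in Batf KO. With DESeq2 the p adjusted over 19734 genes was 0.0256, and the false discovery rate in the authors' deposited table is 0.00630. The exact two-sided permutation p of the CPM was 0.0571. Over the 2 members and their ratio, described further on, the adjusted permutation p was 0.0429 for Ccr7, 0.0571 for Ccr6 and 0.0429 for the ratio. That Ccr6 passed the authors' test was fixed by the selection, since every listed gene had passed it. Ccr6 also passed DESeq2 over 19734 genes, beside 85.3% of all fitted genes, in a setting chosen after seeing the data. It passed neither the stricter edgeR adjustment nor the exact permutation test (p = 0.0571).

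**Figure D1:**
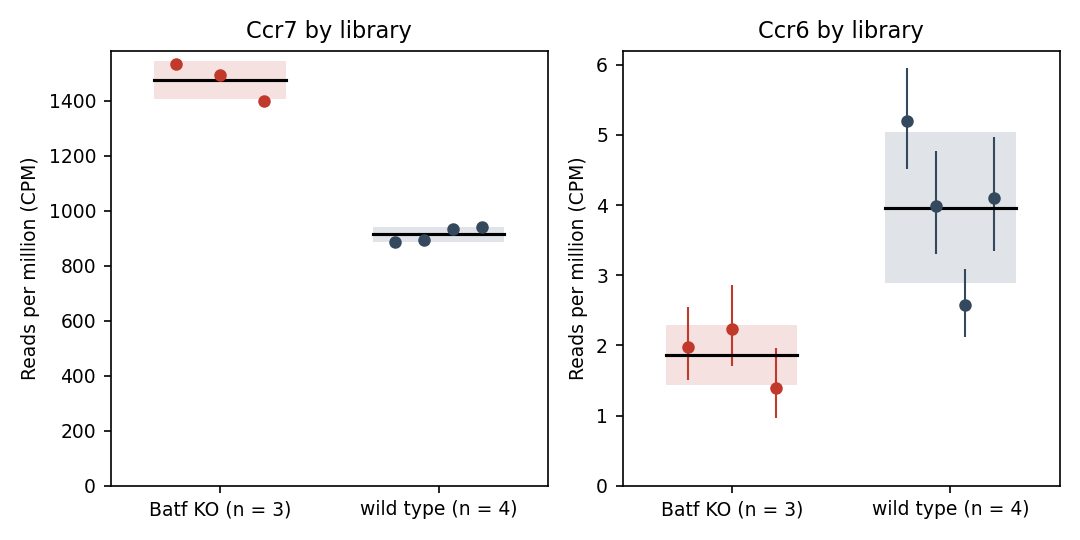
Ccr7 (left) and Ccr6 (right) in CPM on the vertical axis, each from 0, for the 3 Batf KO and 4 wild type libraries on the horizontal axis; points are libraries with exact 95% counting intervals (smaller than the points for Ccr7), black lines are group means and shaded bands are ± 1 SD. Ccr7 lies at 1400 to 1535 CPM in Batf KO and 886 to 942 CPM in wild type, and Ccr6 at 1.39 to 2.23 CPM in Batf KO and 2.57 to 5.19 CPM in wild type.

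RefSeq (GRCm38.p6) gives Ccr6 2 start sites, and the windows from 250 bases before to 50 after each are shown. Capitals mark a match to the NF-kappaB letters GGGNNNNNCC, and both windows are on the plus strand. Of the 2 members, 1 (Ccr6) was matched in the promoter table.
Ccr6 chr17:8235793-8236092: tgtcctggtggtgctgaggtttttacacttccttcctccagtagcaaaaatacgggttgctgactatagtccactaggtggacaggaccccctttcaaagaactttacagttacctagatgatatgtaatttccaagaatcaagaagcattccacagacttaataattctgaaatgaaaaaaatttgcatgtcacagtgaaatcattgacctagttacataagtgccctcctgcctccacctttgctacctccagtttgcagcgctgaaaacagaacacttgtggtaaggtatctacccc
Ccr6 chr17:8242276-8242575: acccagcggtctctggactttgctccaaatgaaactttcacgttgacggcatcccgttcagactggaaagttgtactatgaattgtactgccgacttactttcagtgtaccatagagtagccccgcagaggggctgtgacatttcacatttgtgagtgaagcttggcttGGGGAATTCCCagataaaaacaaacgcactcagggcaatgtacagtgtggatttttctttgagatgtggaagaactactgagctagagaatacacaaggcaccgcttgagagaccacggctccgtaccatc

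Of the motifs searched on both strands, neither window holds the AP-1 letters TGANTCA, which 7.81% of 32851 promoter windows of this length hold. The composite AP-1 and IRF letters TTTCNNNNTGANTCA (AICE1), and those of the shorter composite AICE2, contain the AP-1 letters, were likewise unmatched and are held by 0.119% and 0.125% of windows. The interferon response letters GAAANNGAAA (3.44% of windows) and the STAT6 letters TTCNNNNGAA (6.95%) were also unmatched. The second window holds 2 overlapping NF-kappaB matches that begin 81 and 80 bases before its start site, chromosome 17, 8242445 to 8242455. That motif is held by 50.8% of all windows. The E-box letters CANNTG, held by 72.3% of windows, occur once in the first and at 2 places in the second window, and are left in lower case. These letters describe the windows and say nothing about binding, which was not measured.

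With Ccr7 higher and Ccr6 lower in Batf KO, the balance of their reads differed between the genotypes. There were 776, 672 and 1004 Ccr7 reads for each Ccr6 read in Batf KO replicates 1 to 3, against 171, 225, 364 and 230 in wild type replicates 1 to 4. Every Batf KO library lay above every wild type library, and library size cancels from this ratio. The mean log2 ratio was 9.65 ± 0.29 (SD, n = 3) in Batf KO and 7.89 ± 0.45 (SD, n = 4) in wild type, a difference of 1.76 (SE 0.30) or 3.39-fold. The exact two-sided permutation p was 0.0286, the smallest this number of libraries allows. Since each gene had been listed for its own difference, the direction of the ratio follows from the selection. Per kb of exon, over which the genes can be compared with each other, the level of Ccr7 was 788 to 1178 times that of Ccr6 in each Batf KO library, against 200 to 427 times in the wild type libraries.

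**Figure D2:**
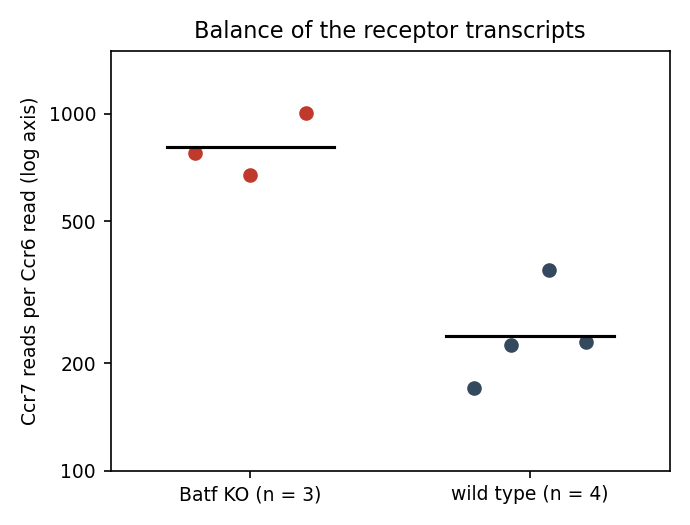
Ccr7 reads for each Ccr6 read (log axis) in the 3 Batf KO and 4 wild type libraries; points are libraries and black lines are geometric means. Batf KO libraries lie between 672 and 1004 and wild type libraries between 171 and 364.

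Other chemokine receptors in the table were also divided in direction. Of 22 annotated receptor genes, 4 (18.2%) were listed, beside 3.81% of the 19734 genes tested. The gene lists were chosen with earlier results of these data known, so such shares are not tests of enrichment. Of the 4 receptor genes, 2 were higher and 2 lower in Batf KO, and the other 18 were not analysed here. The median log2 fold change of the 4 was -0.02, beside 0.30 over the 667 fitted genes. Adjusted over 19734 genes, edgeR called 1 of the 4 (Ccr7), beside 42.9% of all fitted genes, and DESeq2 passed 3, beside 85.3% of all fitted genes.

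Ackr3, which encodes an atypical receptor that binds and removes CXCL12, was 5.83 to 7.39 CPM in Batf KO and 9.20 to 12.7 CPM in wild type. Its log2 fold change was -0.72 (SE 0.16), with an edgeR adjusted p of 0.0848 over 19734 genes. Ccrl2, which encodes a non-signalling relative that presents chemerin, was 10.4 to 11.9 CPM in Batf KO and 4.26 to 9.01 CPM in wild type. Its log2 fold change was 0.67 (SE 0.23), with an edgeR adjusted p of 0.526 over 19734 genes, and of 0.0548 over the fitted genes once Batf KO replicate 1 was left out.

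By CPM per kb of exon, Ccr7 stood above the other listed receptors in every library of both genotypes. In Batf KO the order ran Ccr7 at 747 ± 35.2, Ccrl2 at 4.33 ± 0.28, Ackr3 at 2.01 ± 0.24 and Ccr6 at 0.80 ± 0.18 CPM per kb (SD, n = 3). No neighbours in that order overlapped between libraries. In wild type it ran Ccr7 at 463 ± 14.2, Ackr3 at 3.32 ± 0.52, Ccrl2 at 2.71 ± 0.81 and Ccr6 at 1.71 ± 0.46 CPM per kb (SD, n = 4). There, Ackr3 and Ccrl2 overlapped, as did Ccrl2 and Ccr6, so their order is not settled. Ccr6 was last in every Batf KO library, and in wild type it had the lowest mean but was above Ccrl2 in 1 of 4 libraries. The exon length counts each annotated exon once (1978 bases for Ccr7, 2320 for Ccr6), so a gene that uses few of its exons is understated.

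**Figure D3:**
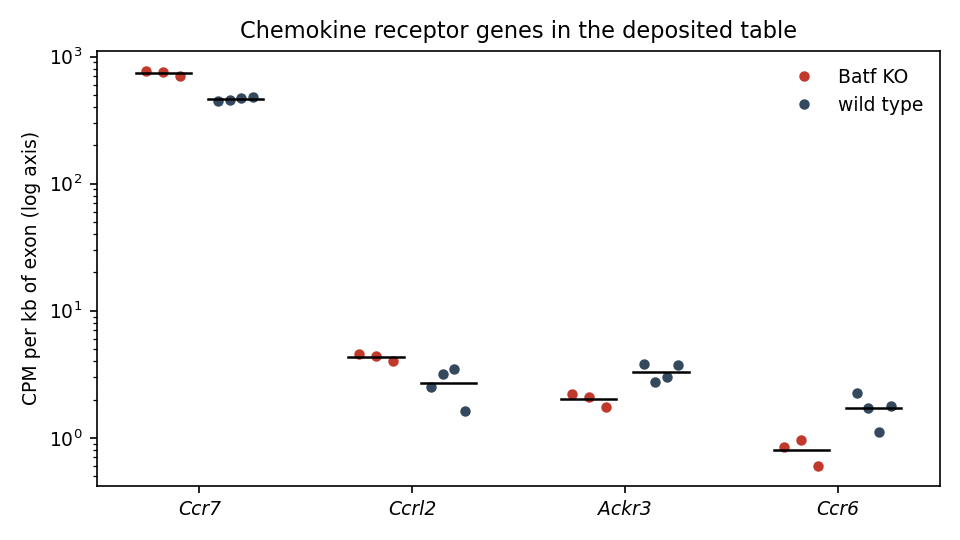
The 4 chemokine receptor genes Ccr7, Ccrl2, Ackr3 and Ccr6, as CPM per kb of annotated exon (log axis) in the 3 Batf KO (left of each pair) and 4 wild type libraries; points are libraries and black lines are group means. Ccr7 averages 747 in Batf KO and 463 in wild type, and the other receptors lie between 0.60 and 4.57.

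Ligand genes in the table were higher in Batf KO, though none passed the stricter edgeR adjustment. Of 37 annotated chemokine genes, 4 (10.8%) were listed, beside 3.81% of the 19734 genes tested. The 4 had a median log2 fold change of 0.88, beside 0.31 over all 752 genes. Ccl3 and Ccl4, which encode inflammatory chemokines, were 13.2 to 16.9 and 13.9 to 23.6 CPM in Batf KO, against 7.23 to 11.7 and 9.03 to 11.4 CPM in wild type. The interferon-induced Cxcl10 was 89.5 to 140.0 CPM in Batf KO and 46.3 to 84.1 CPM in wild type. Pf4, a platelet chemokine gene, was 0.76 to 1.04 CPM in Batf KO and 0.28 to 0.63 CPM in wild type, and lay below the filter of 1 mean CPM. Of the 3 fitted ligand genes, 0 passed over 19734 genes in edgeR (adjusted p 0.0512 for Ccl4, 0.129 for Cxcl10 and 0.153 for Ccl3), beside 42.9% of all fitted genes. All 3 had an unadjusted p under 0.05, as had 100% of the fitted genes, and all 3 passed over 19734 genes in DESeq2, beside 85.3% of the fitted genes. The ligand genes of CCR7 and CCR6 were not analysed here.

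Other surface protein genes of lymphocytes, grouped here under positioning in tissue, were split evenly. A part in placing cells was not tested for any of them. Of 26 annotated genes, 10 (38.5%) were listed, beside 3.81% of the 19734 genes tested. This list was chosen with earlier results known, so the share is not a test of enrichment. Of the 10 genes, 5 were higher and 5 lower in Batf KO, and the median log2 fold change of the 10 was -0.07. Over 19734 genes, edgeR called 1 higher and 3 lower of the 10, beside 20.1% and 22.8% of all fitted genes. Adora2a, an adenosine receptor gene, rose to 84.6 to 98.8 CPM in Batf KO, against 43.1 to 56.4 CPM in wild type. Ptger4, a prostaglandin E2 receptor gene, fell to 38.6 to 46.2 CPM in Batf KO, against 72.3 to 83.3 CPM in wild type. Itgal, the alpha chain of the integrin LFA-1, and Gpr174, a lysophosphatidylserine receptor gene, fell 1.67-fold and 1.49-fold.

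Gpr183 encodes EBI2, the oxysterol receptor that takes activated B cells to the outer follicle and, with CCR7, to the T cell zone border. It was 213 to 229 CPM in Batf KO and 158 to 186 CPM in wild type (log2 fold change 0.34, SE 0.07), with an edgeR adjusted p of 0.0660 over 19734 genes. Cd69, which holds activated lymphocytes in tissue, was 532 to 620 CPM in Batf KO and 414 to 487 CPM in wild type (edgeR adjusted p = 0.0556 over 19734 genes). Icam1 and Cd9 were also higher, and P2ry10 and Itga4 lower, without passing (edgeR adjusted p from 0.0659 to 0.329).

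Genes that act downstream of chemokine receptors were listed in both directions. Of 46 annotated genes, 5 (10.9%) were in the table, beside 3.81% of the 19734 genes tested. Of the 5 genes, 3 were higher and 2 lower, and the median log2 fold change of the 5 was 0.32. Over 19734 genes, edgeR called 2 higher and 2 lower of the 5, beside 20.1% and 22.8% of all fitted genes. Pik3cg, the catalytic subunit of the phosphoinositide 3-kinase that G protein subunits activate, fell furthest, to 1.91 to 2.41 CPM in Batf KO, against 8.29 to 12.5 CPM in wild type (log2 fold change -2.30, SE 0.21). Plcb2, a phospholipase C that the same subunits activate, fell 1.53-fold. The Src family kinase gene Lyn rose 1.36-fold, and Stk4, the kinase MST1 that promotes integrin adhesion, rose 1.25-fold. Grk3, whose kinase shuts off occupied receptors, averaged 17.7 ± 2.73 CPM (SD, n = 3) in Batf KO and 12.2 ± 1.92 CPM (SD, n = 4) in wild type, with groups that overlapped (edgeR adjusted p = 0.265 over 19734 genes).

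**Figure D4:**
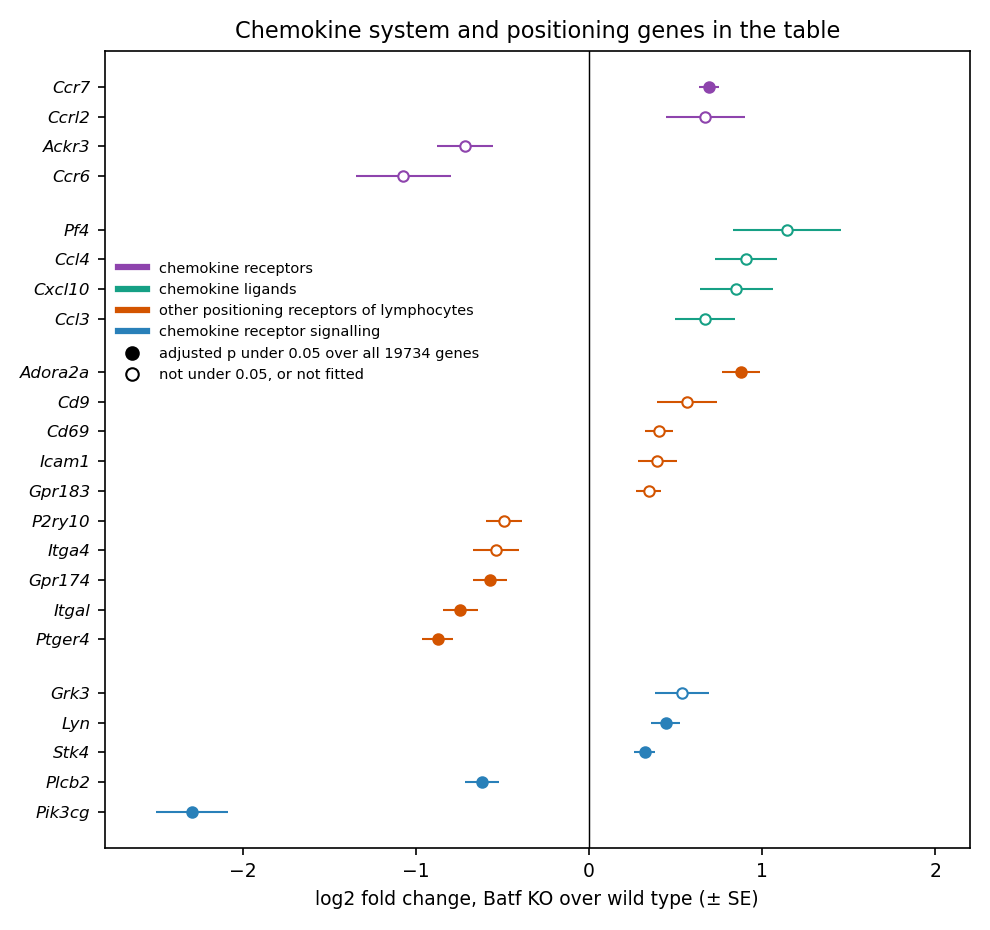
The log2 fold change of Batf KO over wild type (horizontal axis, ± SE from edgeR) for each listed gene of 4 groups (rows, by colour); filled points passed an adjusted p of 0.05 over all 19734 genes and open points did not or were not fitted. Ccr7 lies at 0.69 and Ccr6 at -1.08, and the 4 ligand genes lie above 0.

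Listed markers of cell types are given here, since Ccr7 and Ccr6 are also carried by T cells and dendritic cells. Only genes that differed by genotype were listed (3.81% of the 19734 genes tested). Markers at equal levels are therefore absent, and the listed ones cannot check the label of the cells. Of 14 B cell markers, 4 were listed, 3 higher and 1 lower in Batf KO, and 2 (Ms4a1 and Blk) passed over 19734 genes in edgeR, beside 42.9% of all fitted genes. Ms4a1, which encodes CD20, was 832 to 905 CPM in Batf KO and 533 to 613 CPM in wild type (1.52-fold). Ighm, the IgM heavy chain gene, went the other way, at 1127 to 1280 CPM in Batf KO and 1487 to 1893 CPM in wild type (log2 fold change -0.44, edgeR adjusted p = 0.0634 over 19734 genes). Blk and Cd72 were, like Ms4a1, higher in Batf KO (1.44-fold and 1.48-fold). Summed over the 4 B cell markers, of which Ighm had the most reads, the level was 2554 to 2620 CPM in Batf KO and 2419 to 2762 CPM in wild type. That sum joins opposite changes, so its similar level in the groups does not measure B cell content. Of 29 T and NK cell markers, 2 were listed, both higher in Batf KO, with a summed level of 5.32 to 7.65 CPM in Batf KO and 1.51 to 2.62 CPM in wild type. Cd8b1 made up most of that sum and rose 3.14-fold (edgeR adjusted p = 0.0130 over 19734 genes), an adjustment that 42.9% of all fitted genes passed. Il23r was at 0 in 2 of 4 wild type libraries. Of 23 dendritic and myeloid markers, Zbtb46 alone was listed, at 73.6 to 89.6 CPM in Batf KO and 47.4 to 65.6 CPM in wild type. The part of other cells in the Ccr7 and Ccr6 values was not tested, and in bulk RNA a different share of cells and a different level per cell cannot be told apart.

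The profiles most like each member were ranked by the root mean square difference of log2(CPM + 0.5) over the 7 libraries, after centring, among genes of at least 10 mean CPM. For Ccr7 they were Gadd45b (0.05), Nfatc1 (0.06), Tnfrsf13c (0.07), Bcl2l1 (0.08) and Wnt10b (0.08), against a median of 0.40 over 503 genes. Each lay at a higher level in every Batf KO library. Tnfrsf13c, which encodes the receptor of the B cell survival factor BAFF, had 575 to 590 CPM in Batf KO and 327 to 376 CPM in wild type. Gadd45b, a stress response gene, had 436 to 492 CPM in Batf KO and 299 to 308 CPM in wild type.

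For Ccr6 the closest were Bhlhe40 (0.20), Chst11 (0.20), Ptger4 (0.20), Dusp10 (0.21) and Zbtb18 (0.22), against a median of 0.67 over 504 genes. Bhlhe40, a basic helix-loop-helix repressor gene, had 53.9 to 62.1 CPM in Batf KO and 104 to 137 CPM in wild type. Bhlhe40, Chst11 and Zbtb18 were, like Ccr6, lowest in Batf KO replicate 3 and highest in wild type replicate 1. Chst11 was the one gene of the 5 whose groups overlapped, at 12.1 to 13.3 CPM in Batf KO and 12.9 to 25.2 CPM in wild type. The profiles near Ccr6 were farther from it than those near Ccr7, and Ccr6 had the fewer reads. All candidates had been listed for a genotype difference, so the match between the groups is in part fixed by the selection. The closest genes were picked over these same 7 libraries, so a shared order of libraries within a group follows in part from the pick.

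**Figure D5:**
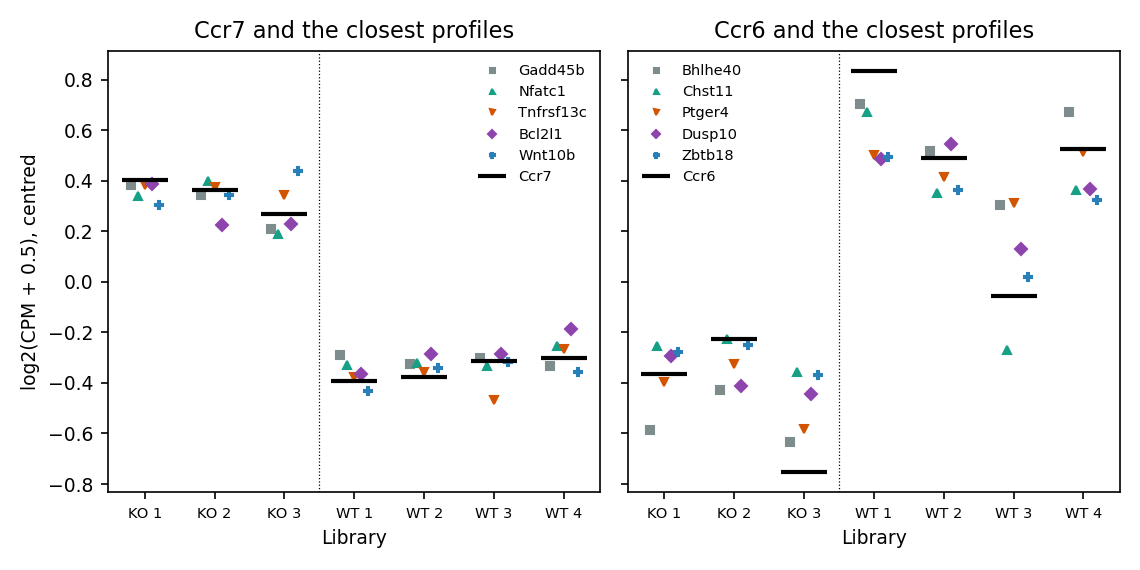
Centred log2(CPM + 0.5) on the vertical axis in each Batf KO (KO) and wild type (WT) library on the horizontal axis, for Ccr7 (left) and Ccr6 (right) as black bars and the 5 closest genes of each as symbols. The genes near Ccr7 differ from it by 0.05 to 0.08 on average and those near Ccr6 by 0.20 to 0.22.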

How the data were processed

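Total RNA of B cells from the spleens of 3 Batf KO and 4 wild type mice was sequenced as paired-end libraries, per the labels' protocols. TopHat2 2.0.6, HTSeq 0.5.3p7, edgeR 3.03 and the build mm10 stand in the submitters' processing notes. For the annotation and the strand setting, "not given in the sources used here" applies. The authors deposited, per the file headers, a read count and a CPM per gene and library for 752 genes. Their own comparison was deposited with it, as a log2 fold change, a mean level in log2, a likelihood ratio score, and a p-value with its false discovery rate.

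Library sizes were recovered as count over CPM. The ratio of false discovery rate to p-value gave 19734 genes tested. Counts were tested with edgeR 4.0.16 (quasi-likelihood, two-sided, R 4.3.3) on the 667 genes of at least 1 mean CPM (85 fell below), with Benjamini-Hochberg adjustment over these, and over 19734 genes with the others counted as failing. "Rose", "fell" and "called" refer to the second adjustment. Each fit estimated the spread of counts on the listed genes alone, all of which had been selected in this same comparison. Adjusting over 19734 genes does not correct for that, so these p-values may be too small. The SE is the log2 fold change over the square root of F. The low-count filter, scaling, the test (DESeq2 1.42.0, limma 3.58.1) and the libraries were varied. Exact permutation tests of CPM enumerated all 35 labelings of the libraries. On simulated data for these 667 genes, at a dispersion of 0.02 and with adjustment over the 667 genes alone, edgeR detected 100% of genes changed by 1 on the log2 scale, 64% of those raised and 62% of those lowered by 0.5, and 0.857% of unchanged genes. The same dispersion was used for every gene. The shares thus do not give the power for Ccr6, whose SD over the mean was 27.1% in wild type, or for the adjustment over 19734 genes.

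Replicates were numbered in accession order. The design text mentions 2 replicates of samples, without saying what they are, and each library was taken as 1 mouse. If these are not separate animals, p-values measure technical spread. A chi-square per degree of freedom of 16.8 or more between libraries of a group showed no library to be a copy of another. Wild type replicates 1 and 2 gave 18.4, replicates 3 and 4 gave 20.8, and the other wild type pairs gave 33.4 to 49.8. Positions and exon lengths are from GENCODE M21 (GRCm38, also called mm10). The members, the 7 gene lists and the motifs were chosen with earlier results of these data known. Named genes were the members, Batf, listed genes of the 7 lists, and the 5 closest profiles of each member. Results for 2 genes are not reported here, and list counts and profile ranks leave them out. Usp9y was named after its values were seen. Counting intervals cover counting error only.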

Additional observations from a re-analysis of the deposited data

Results flagged for a closer look

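Dixon's test at its 95% level looked, among the 4 wild type libraries, for a value whose distance to its neighbour was large beside the whole spread. It was run on 41 sets of values, of which chance alone would pick about 2.05, and it picked 1. Nfatc1, a calcineurin-regulated transcription factor gene, stood at 73.4 CPM in wild type replicate 4, while the remaining wild type libraries had 69.6 to 70.1 CPM. Its Batf KO libraries, at 109 ± 8.14 CPM (SD, n = 3), were above all of these. Neither Ccr7 nor Ccr6 had such a library. Groups of 3 are too small for this test, and the cause of this value was not tested.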

How the results depend on the processing

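The log2 fold change of Ccr7 stayed between 0.65 and 0.73 under 19 alternatives, each with an adjusted p under 0.05. It ran from 0.66 to 0.73 with a library left out. Ccr6 stayed between -1.29 and -0.78 under 18 alternatives, with an adjusted p under 0.05 in 17. The exception was edgeR adjusted over 19734 genes (log2 fold change -1.08, adjusted p = 0.146), stricter by construction. Apart from DESeq2 over 19734 genes, the 17 adjusted over the fitted genes alone, of which 100% passed in edgeR as reported. With a library left out Ccr6 ran from -1.24 to -0.91 (edgeR adjusted p from 0.00204 to 0.0193). It had no value with a filter of at least 5 mean CPM. The 339 higher and 328 lower genes became 134 and 152 over 19734 genes. The difference in log2 read ratio ran from 1.60 to 1.96 with a library left out, where the permutation test cannot go under 0.05. With the wild type pair 3 and 4 alone, Ccr7 was 0.65, Ccr6 -0.81 and the ratio 1.48. With the pair 1 and 2 they were 0.73, -1.29 and 2.04. Of 36 other named genes, none reversed, and 16 did not pass over 19734 genes in edgeR, 5 in DESeq2. Both pairs and the DESeq2 adjustment over 19734 genes were chosen after seeing the data. No paired analysis was run, as the sample labels used here name no pairing of Batf KO with wild type mice. Depth limits Ccr6, with 33 to 61 reads per Batf KO library.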
